A study of Mus musculus with 16 samples.

Results

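Kdm5a, Kdm5b and Kdm5c encode demethylases that act on lysine 4 of histone H3 (H3K4), and H3K4me3, the trimethylated form of that residue, was measured at their own promoters in the hippocampus of adult male mice. The mark was profiled by chromatin immunoprecipitation and single-end sequencing (ChIP-seq), and every H3K4me3 region inside these genes or within 2 kb of either gene end was taken. This gave 3 regions of 35996, 1 per gene, each at the gene start. The study asked how H3K4me3 differs when Kdm5c is lost. Each library came from a pool of 2 mice, and each H3K4me3 group had 2 libraries. The p-values below measure the spread between such pools.

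The groups were Kdm5c KO and WT under standard conditions, Kdm5c KO and WT after exposure to novelty, and ifKO and its controls (ifWT) under standard conditions. Novelty was 1 h alone in a box with tubing and toys. The KO and WT mice of these groups had an F1 C57/129 mixed background, whereas ifKO and ifWT mice were pure C57BL/6J, so that cohort and strain cannot be told apart. All mice were males aged 2 to 4 months, and controls were littermates. The ifKO line is labelled a Kdm5c mutant, and how it was made, and in which cells it acts, could not be taken from these sources. Kdm5C itself and H3K4me1, a mark of enhancers and of the flanks of promoters, were each profiled in 1 KO and 1 WT library of C57BL/6J mice. An ifWT library titled H3K3me3 carries the H3K4me3 antibody in its labels and was kept.

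KDM5 enzymes carry a catalytic Jumonji C (JmjC) domain and remove methyl groups from trimethylated and dimethylated H3K4, the marks that decorate active promoters. Kdm5a was first found as a binding partner of the retinoblastoma protein, and Kdm5b is widely expressed in development and in tumours. Kdm5c lies on the X chromosome, and its human counterpart is mutated in an X-linked form of intellectual disability. Kdm5d, its homologue on the Y chromosome, is the remaining family member and was used for comparison. Whether the altered part of Kdm5c reaches its H3K4me3 region, which runs 1691 bp into the gene, is not known here. The level at Kdm5c is therefore no check of the knockout.

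The promoter sequences are shown because the H3K4me3 regions cover them and because CpG content is a known correlate of the mark. Each is the RefSeq window from 250 bases before to 50 bases after the transcription start (GRCm38.p6), 5′ to 3′ on the plus strand, with CpG dinucleotides in capitals. They come from chr1:134559928-134560227, chrX:152232977-152233276 and chrY:897538-897837. The promoter of Kdm5a is not analysed here.
Kdm5b: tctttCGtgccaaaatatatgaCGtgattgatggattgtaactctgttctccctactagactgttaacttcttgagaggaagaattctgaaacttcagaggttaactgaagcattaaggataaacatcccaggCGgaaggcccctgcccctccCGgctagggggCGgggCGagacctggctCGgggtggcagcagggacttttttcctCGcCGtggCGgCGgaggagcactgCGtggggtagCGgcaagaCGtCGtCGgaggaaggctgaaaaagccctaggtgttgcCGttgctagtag
Kdm5c: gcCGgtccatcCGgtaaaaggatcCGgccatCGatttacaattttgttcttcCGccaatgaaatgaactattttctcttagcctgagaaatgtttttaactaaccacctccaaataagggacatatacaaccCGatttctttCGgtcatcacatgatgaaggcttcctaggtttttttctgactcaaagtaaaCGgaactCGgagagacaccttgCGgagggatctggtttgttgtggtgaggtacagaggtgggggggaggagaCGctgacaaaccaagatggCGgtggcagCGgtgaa
Kdm5d: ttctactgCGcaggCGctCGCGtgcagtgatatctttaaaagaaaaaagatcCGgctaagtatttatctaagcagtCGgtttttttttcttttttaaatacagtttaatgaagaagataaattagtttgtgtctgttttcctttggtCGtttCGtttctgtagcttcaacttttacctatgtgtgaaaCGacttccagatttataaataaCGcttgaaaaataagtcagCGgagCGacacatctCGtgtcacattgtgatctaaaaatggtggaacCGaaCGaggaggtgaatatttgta
The Kdm5b window held 17 CpG in 300 bases, the Kdm5c window 13 and the Kdm5d window 15. The median was 7 CpG over all windows, 20 over the 16094 windows that touched an H3K4me3 region and 3 over the others, so these promoters were above the median of all promoters and below that of marked ones. GC content was 54.7% for Kdm5b, 47.0% for Kdm5c and 36.7% for Kdm5d. A search of both strands found a GC box (GGGCGG) 89 bases before the start of Kdm5b, a motif held by 35.7% of all 32851 windows and 62.8% of those that touch an H3K4me3 region (marked windows). It found CCAAT 196 bases before the start of Kdm5c, a motif held by 37.4% of all and 36.9% of marked windows. The letters AAGATGGC, the core recognised by the factor YY1, lay at position 28 of the Kdm5c window counted from the transcription start, and are found in 2.75% of all and 3.84% of marked windows; this motif was added after the sequence was read. Kdm5d held overlapping TATAAA matches on both strands at 49 and 51 bases before its start, a motif in 13.6% of all and 6.71% of marked windows. An E-box (CACGTG, in 7.15% of all and 9.79% of marked windows) and a cAMP response element (TGACGTCA, in 1.79% and 3.03%) were found in none of the 3 windows.

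The region at Kdm5a (chr6:120363198-120365612, mm10) was 2414 bp wide and ran from 901 bp before to 1513 bp after the low-coordinate end of the gene. The same region holds an end of Ccdc77, which overlaps Kdm5a, so its reads cannot be assigned to 1 of these genes. The region at Kdm5b (chr1:134559955-134561494) was 1539 bp wide and ran from 223 bp before to 1316 bp after the gene start. It lies within the annotated body of Mgat4e, an end of which (chr1:134561746) lies just beyond it, so its reads cannot be assigned to 1 of these genes either. The region at Kdm5c (chrX:152232907-152234889) was 1982 bp wide, ran from 291 bp before to 1691 bp after the gene start and held no other annotated gene. The regions at Kdm5b and Kdm5c thus lay mostly inside the gene bodies. The 2 kb limit was not a close one, since 1 kb gave the same 3 regions. The nearest region beyond it (chr1:134556166-134557168), 3010 bp before the start of Kdm5b, entered only at 5 kb.

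**Figure D1:**
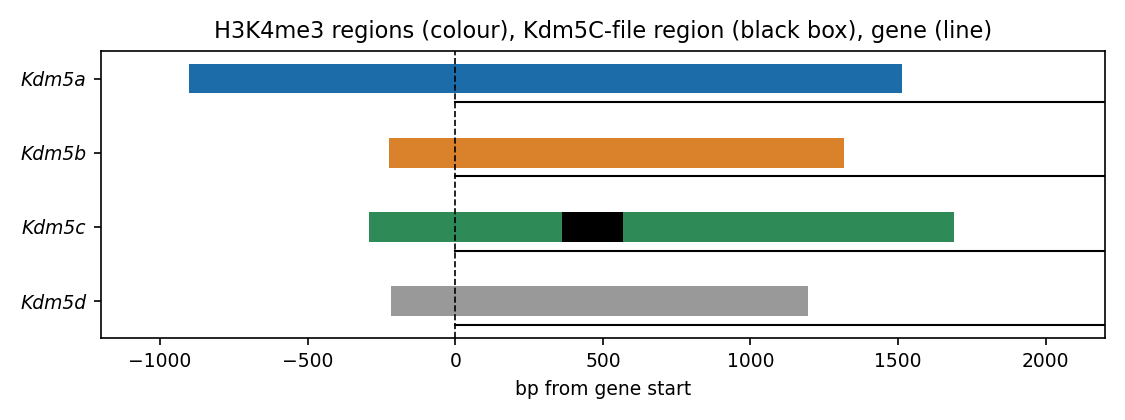
Position of the H3K4me3 regions at the 4 Kdm5 genes, in bp from the gene start (dashed line), with the gene as a black line and the Kdm5C-file region as a black box. Every region spans the gene start, that of Kdm5a reaches farthest upstream (901 bp), and the 205 bp Kdm5C-file region lies inside the Kdm5c region.

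All 3 promoters were strongly marked in every library. Values are CPM, reads per 1e6 reads of the library, scaled by TMM factors. Averaged over the 12 libraries, the level was 116 CPM at Kdm5a, 93.2 CPM at Kdm5b and 62.3 CPM at Kdm5c, each above the median of 33.0 CPM over the gene-end regions. Per length, the level was highest at Kdm5b (60.6 CPM per kb), followed by Kdm5a (48.1), Kdm5c (31.4) and Kdm5d (26.9), against a median of 24.4 CPM per kb over gene-end regions. Raw counts ranged from 1040 to 3496 reads per member region and library. The highest library exceeded the lowest by 1.13 times at Kdm5a, 1.47 times at Kdm5b and 1.35 times at Kdm5c, so Kdm5a varied least.

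Library totals over the regions ranged from 18181192 to 30435735 counts. Replicate libraries varied more than counting error alone gives, by a chi-square per degree of freedom of 7.28 for ifKO, 4.30 for ifWT and 2.19 to 2.75 for the 4 KO and WT groups. The tissue label was checked on promoter marks of cell types: all 7 excitatory neuron markers had a gene-end region, with summed group means from 601 to 741 CPM. The top of that range is ifKO, where Camk2a, a kinase gene of excitatory neurons, had 267.6 CPM, against 132.1 CPM in ifWT. The other excitatory markers differed less, from 51.6 against 44.2 CPM (ifKO, ifWT) at Neurod6 to 37.8 against 41.3 CPM at Wfs1. Choroid plexus markers had no gene-end region (0 of 3). In these bulk samples, fewer cells of a type and less mark per cell cannot be told apart.

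The genotype comparison under standard conditions asked whether loss of Kdm5c changes the mark at the promoters of its own family. H3K4me3 at Kdm5c fell, and the lower values at Kdm5a and Kdm5b did not pass the test. Kdm5c had 60.8 and 60.3 CPM in KO libraries, against 66.6 and 72.2 CPM in WT libraries. Both KO libraries lay below both WT libraries, but how many of all regions showed this order was not counted. These values gave a log2 change of -0.20 ± 0.07 (SE), an edgeR adjusted p of 0.0474 and a 95% interval from -0.34 to -0.06. Over all 35955 tested regions, 13.4% were called at an adjusted p under 0.05. Among the 7560 with a mean of 50 to 125 CPM, a range that holds the 3 promoters, 11.5% were called lower. Over all regions 3.67% were called lower, so 1 of 3 members is set against 11.5% and against that share. The 1320 lower calls behind it were 133 without WT standard replicate 2, 401 without WT standard replicate 1, 364 or 685 without KO standard replicate 1 or 2, 442 with library totals and 746 with strength offsets.

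Kdm5a had 111.2 and 110.6 CPM in KO libraries under standard conditions, against 116.7 and 124.3 CPM in WT libraries. Its log2 change was -0.12 ± 0.05 with an edgeR adjusted p of 0.137. Kdm5b had 80.2 and 85.9 CPM in KO libraries, against 88.9 and 89.6 CPM in WT libraries. Its log2 change was -0.10 ± 0.07 with an edgeR adjusted p of 0.318. The KO and WT libraries did not overlap at either gene. How many of all regions showed this with 2 libraries against 2 was not counted, so it adds nothing to the tests. The call at Kdm5c is a marginal one: it was lost without either WT standard library (edgeR adjusted p 0.0610 without replicate 1 and 0.397 without replicate 2), without either KO standard or either KO novelty library, and with DESeq2, limma-voom, library totals as the scale, or strength offsets, which remove a trend of the change with region strength.

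After novelty, the region that fell in KO was the one at the start of Kdm5b, which Mgat4e shares. Kdm5b had 81.0 and 82.8 CPM in KO libraries, against 94.4 and 99.6 CPM in WT libraries. This gave a log2 change of -0.25 ± 0.06 (SE), equal to -15.7%, and an edgeR adjusted p of 0.00727. Of the 7560 regions of 50 to 125 CPM, 18.9% were called lower after novelty. Among all regions, 17.0% were called and 5.94% were called lower in this comparison. The 2137 lower calls were 275 without WT novelty replicate 2, 492 or 642 without KO novelty replicate 1 or 2, 969 with library totals and 1237 with strength offsets. The call at Kdm5b held with every other scaling, tool and filter run, strength offsets included (log2 change -0.16, edgeR adjusted p 0.0420), and was lost without WT novelty replicate 2 or KO novelty replicate 1.

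Kdm5a had 109.5 and 110.3 CPM in KO libraries after novelty, against 117.4 and 121.6 CPM in WT libraries, a log2 change of -0.12 ± 0.05 (edgeR adjusted p 0.111). Kdm5c had 59.9 and 60.9 CPM in KO libraries, against 61.6 and 72.1 CPM in WT libraries, a log2 change of -0.15 ± 0.07 (edgeR adjusted p 0.118). The groups did not overlap, again with no share over all regions counted, although the lower WT library at Kdm5c stood just above the KO libraries. Without that library (WT novelty replicate 1) Kdm5c was called lower (log2 change -0.26, edgeR adjusted p 0.0197).

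**Figure D2:**
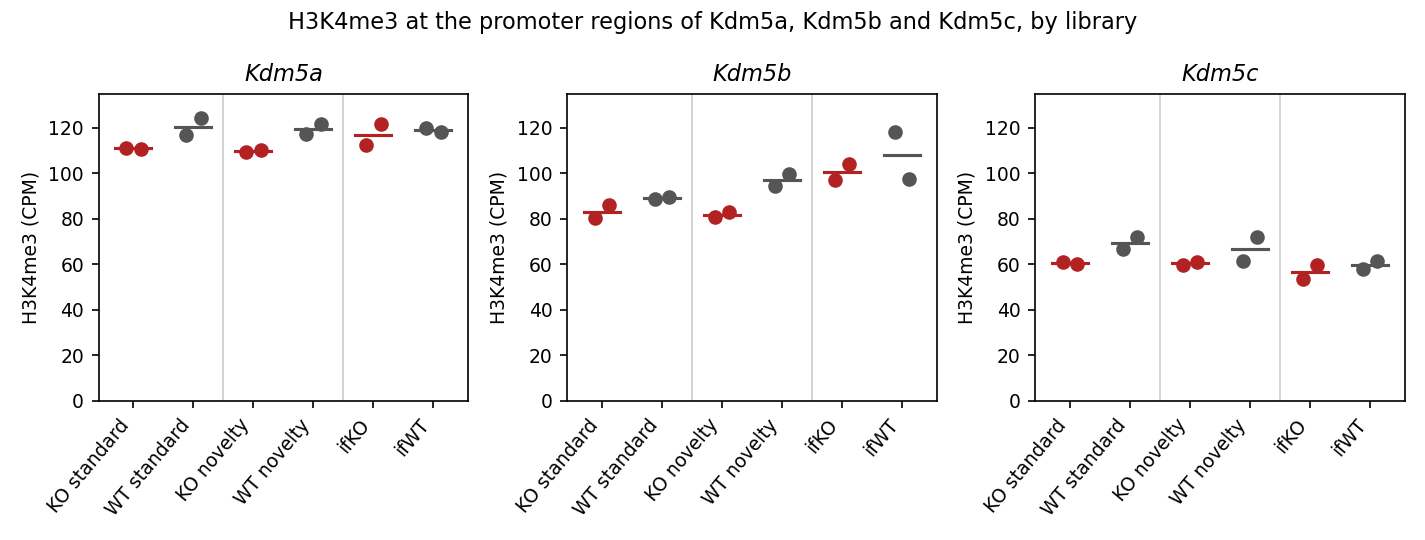
H3K4me3 in CPM at the Kdm5a, Kdm5b and Kdm5c regions, 1 point per library and a line at the mean of 2 libraries; KO and ifKO are red, WT and ifWT grey. KO points lie below the WT points of the same condition at all 3 genes, and ifKO and ifWT points overlap. How many of all regions separate in this way with 2 libraries against 2 was not counted.

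Averaged over standard conditions and novelty, which uses the same 8 libraries again, H3K4me3 at all 3 promoters fell. The log2 change was -0.12 ± 0.04 at Kdm5a (edgeR adjusted p 0.0138), -0.17 ± 0.05 at Kdm5b (edgeR adjusted p 0.00400) and -0.17 ± 0.05 at Kdm5c (edgeR adjusted p 0.00528). As percentages the level fell by 8.01% at Kdm5a, and it fell by 11.4% at Kdm5b and fell by 11.4% at Kdm5c. All 4 KO libraries lay below all 4 WT libraries at each gene, which held for 13.8% of all regions. In this comparison 32.1% of all regions were called and 13.9% were called lower.

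**Figure D3:**
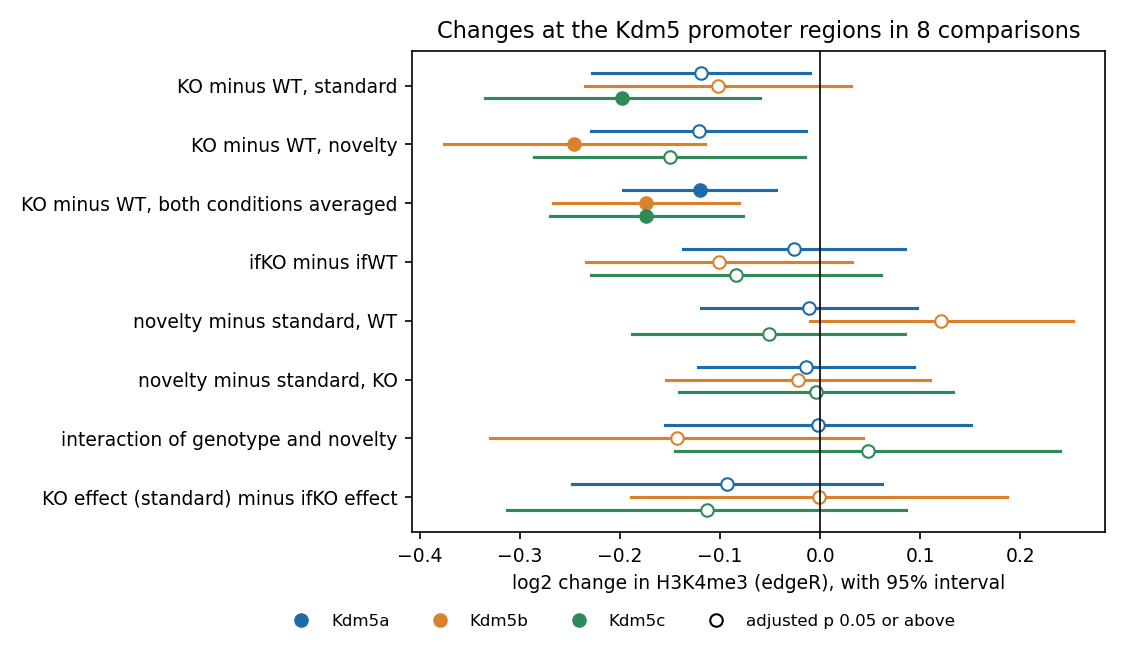
Log2 change in H3K4me3 at Kdm5a, Kdm5b and Kdm5c in the 8 comparisons, with 95% intervals from edgeR; filled points have an adjusted p under 0.05. Calls stand in the KO against WT comparisons only (1 under standard conditions, 1 after novelty and 3 averaged), and the other comparisons hold 0.

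Promoters as strong as these were often called lower, mostly by less than Kdm5b and Kdm5c. Among the 7560 tested regions with a mean of 50 to 125 CPM, 3142 (41.6%) were called lower and 418 higher, with a median log2 change of -0.09, whereas the median over all tested regions was 0.01. With strength offsets 884 of them were lower and 949 higher, with library totals 1658 lower and 664 higher, and without WT novelty replicate 2 or WT standard replicate 2 the lower count was 1834 or 2063. Of the 6927 gene-end regions in that range, 34.5% had a more negative change than Kdm5a, 9.56% a more negative one than Kdm5b and 9.60% a more negative one than Kdm5c. When offsets were fitted to region strength, no member was called: the log2 change was -0.03 at Kdm5a (edgeR adjusted p 0.461), -0.09 at Kdm5b (0.0725) and -0.11 at Kdm5c (0.0534). Scaling by library totals left Kdm5b and Kdm5c called and Kdm5a not (log2 change -0.08, edgeR adjusted p 0.0862). Without WT novelty replicate 2, only Kdm5b was still called, with edgeR adjusted p from 0.000645 to 0.0312 over the 12 fits that each left out 1 library.

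**Figure D4:**
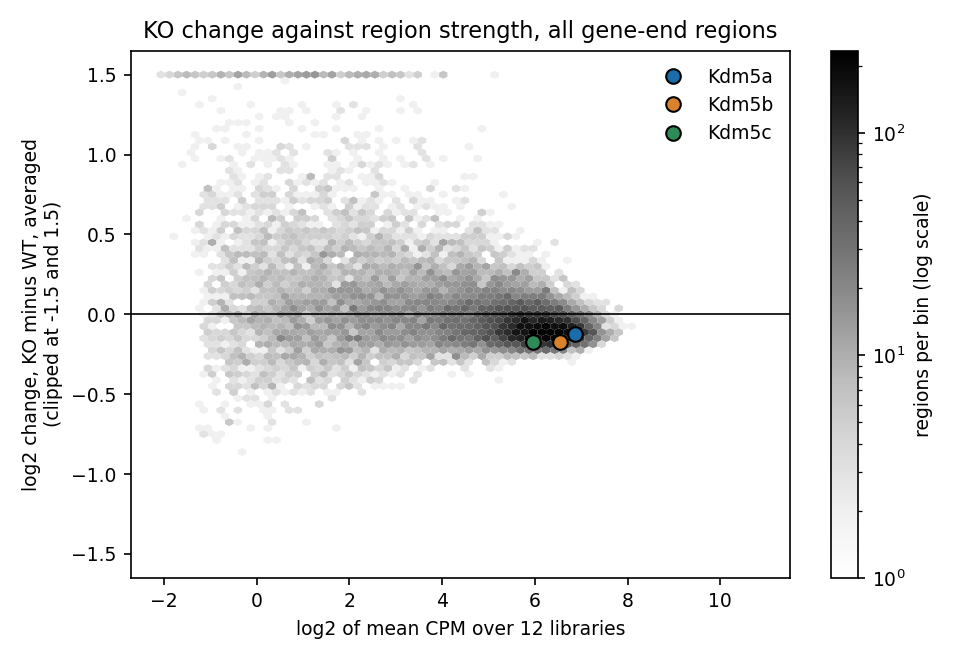
Log2 change of KO against WT, averaged over both conditions, against the log2 of the mean CPM for the tested gene-end regions, shaded by regions per bin, with the 3 Kdm5 promoters in colour. At the strength of the Kdm5 promoters most regions lie below 0, and the 3 points lie within that cloud.

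**Figure D5:**
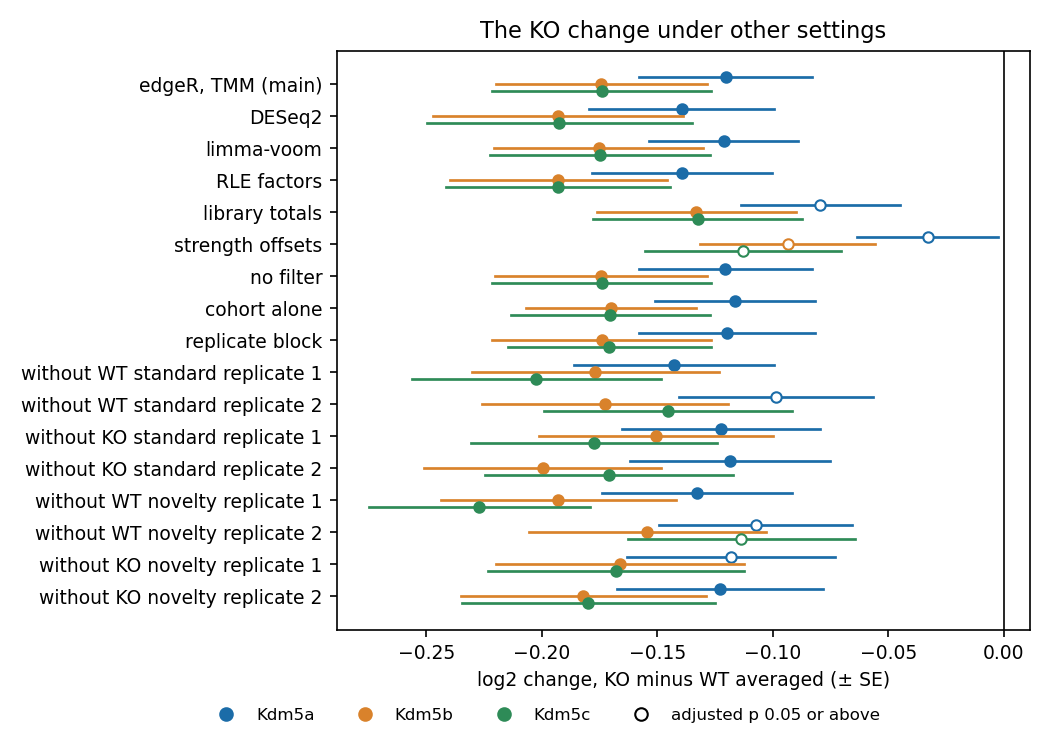
Log2 change at the 3 promoters, KO minus WT averaged over both conditions (± SE), under each scaling, tool, filter or left-out library of the KO cohort; filled points have an adjusted p under 0.05. All values are below 0, and with offsets fitted to region strength they are -0.03 at Kdm5a, -0.09 at Kdm5b and -0.11 at Kdm5c, with 0 calls.

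The balance among the 3 promoters did not differ detectably between genotypes. Ratios within a library need no scaling. Kdm5c over Kdm5a was 0.548 in KO libraries (0.545 to 0.552) and 0.567 in WT libraries (0.525 to 0.593), geometric means of 4 libraries each (two-sided exact permutation p = 0.229). Kdm5b over Kdm5a was 0.747 in KO libraries (0.721 to 0.776) and 0.775 in WT libraries (0.721 to 0.819), with an exact permutation p of 0.314. Kdm5c over Kdm5b was 0.733 in KO libraries and 0.731 in WT libraries (exact permutation p = 0.943). The smallest p that 4 libraries against 4 allow is 0.0286, and over the 6 ratios computed, Kdm5d included, the adjusted exact permutation p was 0.943 each. Genotype was permuted over standard and novelty libraries together, so a difference between the conditions counts as spread. These p-values do not show that the ratios are equal.

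Kdm5d, the Y-linked homologue (chrY:897347-898762), had 40.0 and 32.7 CPM in KO libraries under standard conditions, against 41.6 and 44.6 CPM in WT libraries. The log2 change was -0.25 ± 0.09 (edgeR adjusted p 0.0618), as large as at Kdm5c and not called. After novelty it was 0.01 ± 0.09 (edgeR adjusted p 0.964), and the KO and WT libraries overlapped. Kdm5c and Kdm5d are closely related in sequence, and no source used here says how reads that match both were counted. The weaker region 3010 bp before the start of Kdm5b averaged 38.4 CPM in KO libraries and 35.6 CPM in WT libraries under standard conditions. Its log2 change was 0.11 ± 0.08 (edgeR adjusted p 0.372), unlike the promoter region in sign. After novelty the change was -0.01 ± 0.08 (edgeR adjusted p 0.966), of the same sign as at the promoter region. In ifKO it was 0.21 ± 0.08 (edgeR adjusted p 0.113), again unlike the promoter region in sign. A difference between these 2 regions was not tested.

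In ifKO mice no Kdm5 promoter was called. Kdm5a had 112.5 and 121.5 CPM in ifKO libraries, against 120.0 and 118.1 CPM in ifWT libraries, a log2 change of -0.03 ± 0.05 (edgeR adjusted p 0.860; 95% interval -0.14 to 0.08). Kdm5b had 97.0 and 103.8 CPM in ifKO libraries, against 118.0 and 97.6 CPM in ifWT libraries, a log2 change of -0.10 ± 0.07 (edgeR adjusted p 0.435; 95% interval -0.23 to 0.03). Kdm5c had 53.5 and 59.6 CPM in ifKO libraries, against 58.1 and 61.5 CPM in ifWT libraries, a log2 change of -0.08 ± 0.07 (edgeR adjusted p 0.581; 95% interval -0.23 to 0.06). The ifKO and ifWT libraries overlapped at all 3 genes, and how many of all regions overlap was not counted. Of all regions 5.38% were called and 0.976% called lower. The 351 lower calls were 42 without ifWT replicate 1, 565 without ifWT replicate 2, 46 without ifKO replicate 1, 891 without ifKO replicate 2, 201 with strength offsets and 93 with the ifKO and ifWT libraries fitted alone; without WT standard replicate 2 they were 233. The ifWT libraries disagreed most at Kdm5b: without ifWT replicate 2 its log2 change was -0.23 (edgeR adjusted p 0.0339), and without ifWT replicate 1 it was 0.04.

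The difference between the KO effect under standard conditions and the ifKO effect was -0.09 ± 0.08 at Kdm5a, -0.00 ± 0.09 at Kdm5b and -0.11 ± 0.10 at Kdm5c on the log2 scale, with edgeR adjusted p of 0.836, 0.999 and 0.848. Of all regions, 0.701% were called in that test. A difference between the lines was therefore not shown at these promoters, and the intervals (for Kdm5c -0.31 to 0.09) still include differences as large as the KO effect itself.

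Novelty for 1 h changed none of the 3 promoters detectably. In WT mice the log2 change, novelty against standard conditions, was -0.01 ± 0.05 at Kdm5a, 0.12 ± 0.06 at Kdm5b and -0.05 ± 0.07 at Kdm5c, each with an edgeR adjusted p of 0.999. At Kdm5b both WT novelty libraries (94.4 and 99.6 CPM) lay above both WT standard libraries (88.9 and 89.6 CPM). The unadjusted edgeR p was 0.0699, and how many of all regions showed this order was not counted. In KO mice the log2 changes were -0.01 ± 0.05, -0.02 ± 0.06 and -0.00 ± 0.07 in the same order of genes. Calls were rare everywhere: 0.00556% of regions in WT (2 regions) and 0.0% in KO, where edgeR called 0 and 1416 had an unadjusted p under 0.05. The interaction of genotype and novelty was also called at 0.0% of regions (1055 at an unadjusted p under 0.05), and at Kdm5b it was -0.14 ± 0.09 (95% interval -0.33 to 0.04). The fall at Kdm5b after novelty is thus not shown to differ from the change of -0.10 under standard conditions.

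The Kdm5C files hold a region at the Kdm5c promoter and at no other member, which does not by itself show that the protein sits there. They list 2321 regions, of which 1 overlapped a Kdm5 promoter: a 205 bp region (chrX:152233560-152233765) wholly inside the Kdm5c H3K4me3 region and 653 bp after its start. It held 250 covered bases in the KO library and 876 in the WT library, which at 50 bases a read is 5 against 17.5 read equivalents (exact 95% Poisson intervals 1.62 to 11.7 and 10.7 to 28.4, counting error only). Per bp this was 1.22 in KO and 4.27 in WT, close to the WT median of 3.98 over the file. The KO over WT ratio of 0.285 compares with a median of 0.203 over all regions and with 0.222 for the file totals. Scaled by those totals it was 1.28, with a counting interval of 0.363 to 3.49, so the depth cannot separate it from the file as a whole.

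With 1 library per genotype there is no test of the Kdm5C values. H3K4me1 in the same 205 bp was 50 covered bases, 1 read equivalent, in the KO and in the WT library. A Kdm5C-file region overlapped 21.2% of the gene-end regions with 50 to 125 CPM, so 1 of 3 members is near what such regions show. In that range, the median averaged log2 change in H3K4me3 was -0.07 for the 1471 regions with an overlap and -0.10 for the 5456 without, and Kdm5c, with its overlap, had -0.17.

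Other genes listed as writers and erasers of H3K4 methylation, or as their subunits and relatives, were read at their strongest gene-end region, averaged over both conditions. Of the 32 enzymes and subunits listed, 29 had such a region (Smyd1, Ash2l and Dpy30 did not), of which 14 fell and 1 rose, with a median log2 change of -0.11. This is set against 13.9% of all regions and 41.6% of regions of 50 to 125 CPM called lower. The rise was at the shared end of Setd1b, a gene for an H3K4 methyltransferase, and Rhof, with means of 148.5 CPM in KO and 96.8 CPM in WT, a log2 change of 0.62 ± 0.04 (edgeR adjusted p 1.15e-14). The region was also higher in ifKO, at 136.0 CPM against 94.1 CPM in ifWT (0.53 ± 0.05, edgeR adjusted p 1.62e-08). It was the only listed enzyme region called higher in either line. The largest falls were at Kdm2a, a JmjC demethylase gene with a CpG-binding domain (-0.26 ± 0.04, shared with 9430078G10Rik), and at the methyltransferase genes Kmt2d (-0.21 ± 0.04) and Kmt2a (-0.21 ± 0.05). A place on the list does not show that the product of Kdm2a acts on H3K4. Of the 29, 2 fell in ifKO, where 0.976% of all regions and 3.29% of those of 50 to 125 CPM did: Kmt2c, another methyltransferase gene (-0.31 ± 0.07, edgeR adjusted p 0.00366), and Bod1l, a gene for a methyltransferase-associated protein (-0.23 ± 0.06, edgeR adjusted p 0.0235). With offsets fitted to region strength, 5 of the 29 fell and 3 rose in the averaged KO comparison. Of the 7560 regions of 50 to 125 CPM, 884 were then lower and 949 higher. With library totals 10 of the 29 fell and 2 rose, beside 1658 lower and 664 higher of the 7560. The same 7560 regions are the comparison for the 2 lists below.

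Genes for proteins found with KDM5 enzymes or known to recruit them were read in the same way. Of 25 listed, 23 had a gene-end region (Zmynd8 and Rbpj did not), and 12 fell and 0 rose in KO, with a median of -0.11, beside the same 41.6% of regions of 50 to 125 CPM called lower. The largest falls were at Chd4, a chromatin remodeller of the NuRD complex (-0.24 ± 0.04, edgeR adjusted p 4.55e-05), Max, the dimer partner of Myc (-0.20 ± 0.05), and Sin3b, a corepressor scaffold (-0.18 ± 0.04). In ifKO, 3 of 23 fell, where 0.976% of all regions and 3.29% of those of 50 to 125 CPM did. The 3 were Rcor1, a corepressor that joins REST and LSD1 (-0.38 ± 0.09, edgeR adjusted p 0.00385), Tfdp1, the partner of E2F factors (-0.30 ± 0.07, edgeR adjusted p 0.00999), and Max (-0.26 ± 0.08, edgeR adjusted p 0.0494, near the threshold). With strength offsets 5 of the 23 fell in KO, with library totals 6, and without WT novelty replicate 2 5.

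Of 19 other JmjC demethylase genes listed, 18 had a gene-end region (Kdm4c did not), and 9 fell and 0 rose, with a median of -0.10 and against the same 41.6%. With strength offsets 1 fell and 1 rose, and with library totals 2 fell and 1 rose. Without WT standard replicate 2 the lower count was 2, without WT novelty replicate 2 or KO novelty replicate 1 it was 4, without KO novelty replicate 2 it was 5, and without KO standard replicate 1 or 2 it was 6. In ifKO 1 of 18 fell, beside 0.976% of all regions and 3.29% of those of 50 to 125 CPM. The ifKO calls of these lists were not read under the other settings.

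The promoters most like each member over the 12 libraries differed from gene to gene. By Pearson correlation of log2 CPM among 12371 gene-end regions, Kdm5a was most like Otud5 (0.964), the shared end of R3hdm1, Zranb3 and Gm29383 (0.962) and Rplp0 (0.952). For Kdm5b, Dcaf5 (0.985) and the shared end of Cabp7 and Gm35102 (0.981) were among the most alike. Kdm5c was most like the shared ends of Cwc25 and Atp5l2-ps (0.976), of Nit1 and Pfdn2 (0.964) and of Gcdh and Gm39213 (0.956). Among the members, the correlation was 0.67 between Kdm5a and Kdm5b, 0.56 between Kdm5a and Kdm5c and -0.12 between Kdm5b and Kdm5c. These are descriptions over libraries that share cohorts and depth, and the difference in level between the cohorts, with Kdm5b on average higher and Kdm5c on average lower in the C57BL/6J libraries, enters them.

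Summed marker levels of some other cell types differed between KO and WT libraries, which was not tested. Summed over the markers with a gene-end region, endothelial promoters (3 of 3) summed to 78.7 CPM in KO libraries, against 92.0 CPM in WT libraries, under standard conditions, and to 76.9 against 84.7 CPM (KO, WT) after novelty. Interneuron promoters (4 of 4) summed to 42.4 CPM in KO libraries, against 52.8 CPM in WT libraries, and after novelty to 41.3 CPM in KO and 53.3 CPM in WT libraries. Most of that gap was at Gad1, which makes the transmitter GABA, with 32.2 CPM in KO libraries, against 41.9 CPM in WT libraries. Pvalb had 4.00 CPM in KO libraries, against 4.03 CPM in WT libraries, and after novelty Sst (1.75 CPM in KO, 1.29 CPM in WT) and Gad2 (6.05 CPM in KO, 5.99 CPM in WT) were no lower in KO. Microglial promoters (4 of 4) summed higher, at 24.99 CPM in KO libraries, against 20.6 CPM in WT libraries, under standard conditions. Most of that gap was at P2ry12, with 9.67 CPM in KO and 6.52 CPM in WT libraries. Tmem119 had 4.88 against 3.99 CPM (KO, WT), Csf1r 8.05 against 7.91 CPM and Cx3cr1 2.38 against 2.17 CPM. After novelty Cx3cr1 was no higher in KO (1.83 CPM in KO, 1.89 CPM in WT). The part of these cell types in the changes at the Kdm5 promoters was not tested.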

How the data were processed

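H3K4me3, H3K4me1 and Kdm5C were profiled in hippocampal pools. The deposited H3K4me3 files hold raw read counts per region over a shared set of 36005 regions, of which 9 repeats were dropped. For Kdm5C and H3K4me1 the deposited value is a signal that behaves as covered bases, taken here at 50 bases a read equivalent. Per the submitters' processing notes, MACS2 2.1.0, Bowtie2 2.2.9, DESeq2 1.10.0 and SAMtools 1.3.1 were used, with the build mm10. No source used here says how regions were drawn.

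All 12 H3K4me3 libraries were fitted together with edgeR 4.0.16 (R 4.3.3) quasi-likelihood tests, 1 mean per group, TMM factors and filterByExpr, with Benjamini-Hochberg adjustment over 35955 regions and a threshold of 0.05, and "called", "rose" and "fell" refer to it. Library totals gave a floor of 3 counts at 0.0986 to 0.165 CPM. Intervals on log2 changes include the spread between libraries. The floors and the Kdm5C intervals reflect counting error alone. PCR reads lacking molecular identifiers may also repeat a molecule, which these floors and intervals do not take into account. Alternatives were DESeq2 1.42.0, limma-voom (limma 3.58.1), RLE factors, library totals, offsets fitted to region strength, no filter, the cohort alone, a replicate block and leaving out each library. Genes came from a RefSeq GRCm38.p6 table without strand. The 3 genes, the lists and the alternatives were chosen with earlier results of these data known. Members of the enzyme and partner lists are named where they had the 3 largest rises or falls in the averaged KO comparison, or were called in ifKO; likeness took the 3 best correlated regions, of which 1 is not reported here.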

Additional observations from a re-analysis of the deposited data

How the results depend on the processing

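Under standard conditions 1 member was called, and 0 with DESeq2, limma-voom, library totals or strength offsets (0 to 1 when 1 library was left out). After novelty 1 was called (0 to 2 when 1 library was left out). Averaged over both, 3 were called, 2 with library totals, 0 with strength offsets and 1 to 3 when 1 library was left out. In ifKO 0 were called (0 to 1 when 1 library was left out). The other scalings, tools and filters run left these counts unchanged. No called change turned its sign. Uncalled ones did: with strength offsets Kdm5a was 0.0413 in ifKO and 0.00301 for novelty in KO. With 1 library left out, the log2 change ran from -0.0820 to 0.0289 at Kdm5a and from -0.23 to 0.0405 at Kdm5b in ifKO, from -0.0560 to 0.0388 at Kdm5a and from -0.17 to 0.0543 at Kdm5c for novelty in WT, and from -0.0701 to 0.0285 at Kdm5b and from -0.0159 to 0.00806 at Kdm5c for novelty in KO.

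Over all regions, KO against WT averaged gave 6519 higher and 5009 lower; library totals gave 7287 and 2565, RLE factors 6196 and 6223, and leaving out WT standard replicate 2 or WT novelty replicate 2 gave 3173 and 2904 lower. Among regions of 50 to 125 CPM, 3142 were lower, against 1658 with library totals and 884 with strength offsets. The cause was not tested. Unscaled, the Kdm5C KO over WT ratio at Kdm5c was 0.285.

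The deviations of libraries with the same replicate number correlated from -0.10 to 0.06 over 15 pairs of groups, so the numbers do not pair the libraries. With a replicate block, 1 member was called under standard conditions, 1 after novelty and 3 averaged, and 11226 regions were called in the averaged comparison against 11528 without it.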
